A study of Mus musculus with 6 samples.

Results

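The Sfmbt2 intronic miRNA cluster, also called C2MC (chromosome 2 microRNA cluster), was followed in round spermatids of mice with and without MIWI. Its members were taken as every mouse miRNA entry of the deposited small RNA table of the numbers miR-297, miR-466, miR-467 and miR-669 in miRBase (the registry that names miRNAs), with any letter and either arm. This gave 71 of the 1900 miRNA entries, in a table of 45932 small RNAs. The study compared round spermatids purified from testes of Miwi knockout mice (KO, 3 libraries) with those of wild-type mice (WT, 3 libraries). Both groups were C57BL/6 mice at postnatal day 21, and the knockout was global, so that every cell of the animal carried it. Small RNA of total RNA extracts was sequenced, with the question of whether the small RNA profile of round spermatids is altered without MIWI, a PIWI protein that binds piRNAs. In the submitters' description, spermatids of these males develop only to step 4, which limits the KO group as a model of the whole round spermatid stage. Miwi mRNA was not measured in a small RNA table, so the knockout itself was not checked here. The labels do not say that each library came from a separate animal, so p-values measure only the spread between these libraries, which may be technical.

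Sfmbt2 encodes a Polycomb-related protein, and in mouse a long array of miRNA hairpins lies within one of its introns. The gene is paternally expressed in the extraembryonic lineages, and the cluster is best known for its abundance in placenta and trophoblast and for its part in placental growth. Its hairpins arose by repeated duplication of sequence rich in CA and UG repeats, so many mature miRNAs of the array are alike. MicroRNAs are cut from their hairpins by DROSHA and DICER and loaded into AGO proteins, whereas piRNAs are made without DICER and are loaded into PIWI proteins such as MIWI.

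The positions of the hairpin genes were taken from the GRCm38 annotation by name. Sfmbt2 lies on the + strand of chromosome 2 at 2:10370510-10595253. Of 82 hairpin genes with the 4 miRBase numbers, 72 lay inside Sfmbt2, all on its strand and all in a single intron, 2:10461473-10523944, which is intron 10 of one annotated transcript and intron 11 of another. They spanned 51.6 kb, from 10466663 to 10518279, and comprised 29 hairpins of miR-669, 24 of miR-466, 14 of miR-467 and 5 of miR-297. The other 10 hairpins lay on other chromosomes. The name of the cluster therefore held for most of the members and not for all: 57 entries had hairpins in Sfmbt2 alone, 5 had hairpins both there and elsewhere, and 9 had hairpins elsewhere alone. In counts, these 3 sets held 87.7%, 9.32% and 2.95% of the cluster's reads.

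**Figure D1:**
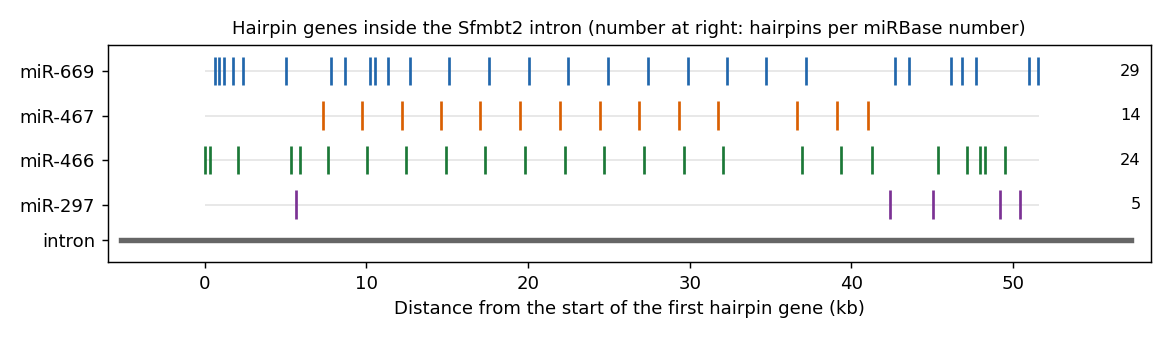
Hairpin genes inside the Sfmbt2 intron (grey bar), drawn by distance from the start of the first hairpin in kb, with 1 row for each miRBase number and 1 tick at the middle of each hairpin. The 29 miR-669, 24 miR-466 and 14 miR-467 hairpins recur along the array, while 4 of the 5 miR-297 hairpins lie in its last part.

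RefSeq (GRCm38.p6) gave a mature sequence for 8 of the 71 members, all of them with hairpins outside Sfmbt2. They are printed to show the repeat-like sequence of these miR-466, miR-467 and miR-669 entries only, with the seed (bases 2 to 8) in capitals. They do not show the sequences of the array in Sfmbt2.
miR-466i-3p: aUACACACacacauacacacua
miR-466q: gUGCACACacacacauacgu
miR-467f: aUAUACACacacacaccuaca
miR-467g: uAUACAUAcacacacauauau
miR-466j: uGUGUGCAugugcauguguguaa
miR-466k: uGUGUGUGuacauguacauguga
miR-467h: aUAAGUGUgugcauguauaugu
miR-669n: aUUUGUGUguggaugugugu
The first 4 hold the letters ACACAC and the last 4 hold UGUGUG, searched on the RNA strand only and with overlap allowed. Of 1679 mouse mature sequences in the same table, these 8 included, 0.655% hold ACACAC and 1.67% hold UGUGUG. The 8 seeds all differ, so that entries with 1 miRBase number need not share a seed. miR-467h, which had the largest increase in KO among the tested members, maps to 9:115381898-115381919 (+), miR-466i-3p to 13:17747552-17747573 (+) and miR-466k to 3:85467396-85467418 (+). Lengths of the 71 members, read from the table, ranged from 19 to 25 nt with a median of 22 nt. Of the names, 30 give the 5p arm of the hairpin, 29 the 3p arm and 12 no arm.

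The small RNA libraries held 747443 to 1335013 counts in KO and 3114845 to 5037232 in WT. The miRNA totals were closer, at 146487 to 243655 in KO and 179761 to 246030 in WT, because miRNAs made up 18.1% to 19.6% of the KO tables and 4.88% to 5.96% of the WT tables. Annotated piRNAs made up 79.5% to 80.8% and 93.3% to 93.9%. Levels below are therefore counts per 10000 miRNA counts, so that each value is a share of the miRNAs of its library, not divided by length. They say nothing of miRNA per cell, and in bulk samples fewer cells of a type and less RNA per cell cannot be told apart. The replicate 3 libraries of both genotypes stood apart, with snoRNA fragments at 0.563% of the KO table and 0.431% of the WT table, against 0.13% to 0.19% in the other 4.

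As a share of the miRNAs, the summed level of the cluster did not differ between the genotypes beyond the spread of the libraries. It was 314.1, 340.7 and 261.5 counts per 10000 miRNA counts in KO replicates 1, 2 and 3, and 313.0, 360.0 and 240.3 in the WT replicates. The highest and the lowest library were both WT, and the genotypes overlapped fully. The means were 305.4 ± 40.3 in KO and 304.4 ± 60.3 in WT (SD, n = 3; exact permutation test, two-sided, p = 0.9, where 3 against 3 cannot go below 0.1). With the sum as 1 RNA in the model fitted across all small RNAs, the KO level was 1.00 times the WT level, with a 95% interval of 0.795 to 1.27 (edgeR quasi-likelihood test, Benjamini-Hochberg adjusted p = 0.980). Changes of the whole cluster within these bounds were not detectable with this spread, in a fit that did not use the replicate numbers.

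Counting error was a small part of that spread. The libraries held 4991 to 7373 cluster counts, which gives a counting error of 1.17% to 1.42% of the value, while the libraries of 1 genotype differed with a coefficient of variation of 13.2% in KO and 19.8% in WT. The exact (Clopper-Pearson) 95% interval, which covers counting error only, was 255.2 to 267.9 in KO replicate 3 and 331.5 to 350.1 in KO replicate 2. In WT it was 234.3 to 246.4 in replicate 3 and 351.8 to 368.3 in replicate 2. Libraries of the same genotype thus differed beyond counting error, and in both genotypes replicate 3 was lowest and replicate 2 highest.

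The replicate 3 libraries were low over most of the cluster, a pattern chosen after its values were seen. Of the 45 members with enough counts to be tested, 28 (62.2%) were at their lowest in replicate 3 of both genotypes, against 40 of 303 other tested miRNAs (13.2%). Those libraries also had the highest shares of snoRNA fragments, given above, and of mitochondrial tRNA fragments, at 0.0782% of the KO table and 0.0508% of the WT table against 0.0175% to 0.0194% in the others. The part of these fragments in the low cluster level was not tested. Between libraries of the same number, KO minus WT of the summed level was 1.12, -19.3 and 21.2 for replicates 1, 2 and 3, with no common direction. Without both replicate 3 libraries the log2 ratio of the means was -0.04.

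**Figure D2:**
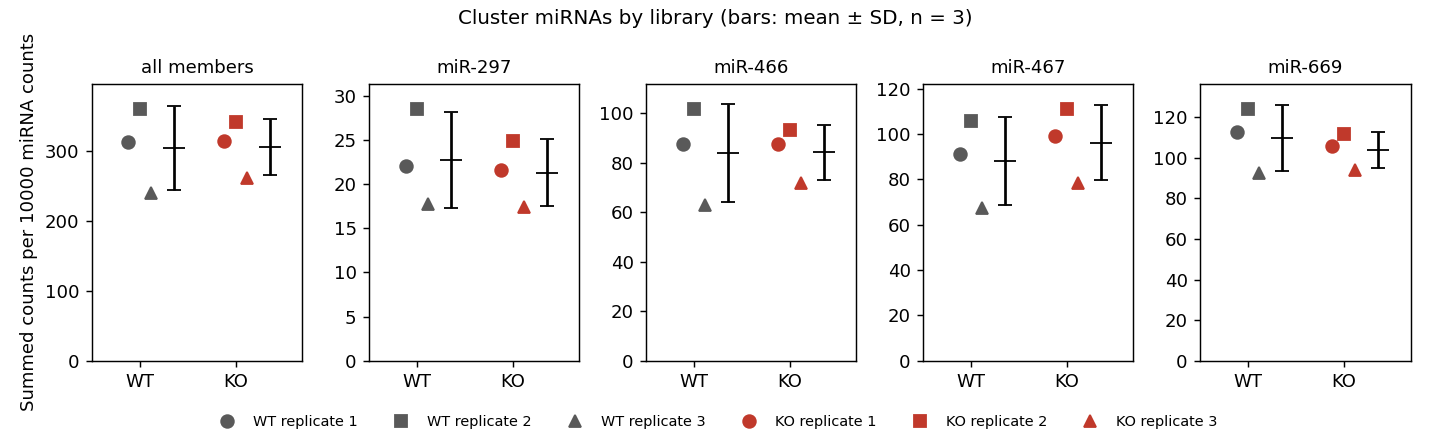
Summed counts per 10000 miRNA counts (y axis, from 0) for all 71 members and for each miRBase number, by genotype, with 1 point per library, the marker shape giving the replicate number, and the mean ± SD (n = 3) as black bars. In every panel the KO and WT libraries overlap, and replicate 3 (triangles) is the lowest of its genotype.

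The sums of the 4 miRBase numbers did not differ between the genotypes beyond their spread either. The miR-669 entries, 27 in the table, were the most abundant at 35.2% of the cluster's counts, with 103.8 ± 8.97 counts per 10000 in KO and 109.7 ± 16.1 in WT. The miR-467 entries (13) held 30.1%, with 96.2 ± 16.5 and 88.1 ± 19.2. The miR-466 entries (27) held 27.5%, with 84.1 ± 11.2 and 83.9 ± 19.7. The 4 miR-297 entries held 7.20%, with 21.3 ± 3.79 and 22.8 ± 5.43 (SD, n = 3). All 4 sums overlapped between the genotypes, with exact permutation p (two-sided) of 0.6 for miR-467, 0.7 for miR-669 and miR-297, and 0.9 for miR-466, each 0.9 when adjusted over the 4 numbers.

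The intervals of these sums were of like width. From edgeR, the KO level as a ratio of the WT level was 1.09 (95% interval 0.855 to 1.40) for miR-467 and 1.00 (0.785 to 1.28) for miR-466. It was 0.947 (0.753 to 1.19) for miR-669 and 0.934 (0.718 to 1.21) for miR-297. The miR-467 sum was higher in KO in each of the 3 pairs of libraries with the same number, at 99.04, 111.1 and 78.5 counts per 10000 against 91.0, 105.6 and 67.5 in WT, although the pooled groups overlapped and the numbers are not known to mark shared animals. The set of entries with hairpins elsewhere alone had 9.15 ± 0.432 in KO and 8.92 ± 2.84 in WT, and those with hairpins in Sfmbt2 alone had 269.5 ± 35.2 and 264.9 ± 48.8 (SD, n = 3), so neither place differed beyond its spread.

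A few members carried most of the signal. The 12 with the highest levels held 72.6% of the cluster's counts, and 8 members were among the 100 highest of all miRNAs. miR-669a-3p led, with 19.4% of the cluster's counts and rank 31 among miRNAs. Its level was 56.4, 59.1 and 49.8 counts per 10000 in the KO replicates and 63.4, 70.9 and 52.4 in the WT replicates. The genotypes overlapped at WT replicate 3, and KO minus WT was -0.18 ± 0.17 on the log2 scale (SE; adjusted p = 0.326 by edgeR).

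miR-467a-5p was next, with KO libraries at 35.8 ± 5.90 and WT libraries at 32.4 ± 7.19 (SD, n = 3), followed by miR-467e-5p with 23.4 ± 3.07 and 24.3 ± 4.77. The levels of miR-466b-3p were 20.8, 21.1 and 19.7 in KO and 18.3, 21.6 and 13.7 in WT. miR-669a-5p had 17.1 ± 1.07 in KO and 14.7 ± 1.83 in WT. Over the 6 libraries the range of miR-669a-3p lay above that of miR-467a-5p, and the range of each later member of the 12 overlapped that of the one before it. In the order of the means miR-466d-3p, miR-297a-3p and miR-467d-3p followed, with WT means of 13.1, 12.7 and 10.6, and then miR-466f-3p, miR-467c-5p, miR-466g and miR-669c-5p, with WT means of 5.91 to 10.1. Among the 12, miR-467d-3p passed the test between genotypes and the other 11 did not.

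The order of the members was nearly the same in both genotypes. Over the 71 members, Spearman's rho between the KO and the WT means was 0.985, and over the 45 tested members it was 0.976, both given as descriptions, since members of 1 library share its depth and preparation. Of the 12 highest members in KO, 11 were among the 12 highest in WT. A mature miRNA can come from several hairpins of the array: 12 entries had 3 or more hairpin copies and held 53.8% of the cluster's counts, while the 56 with 1 copy held 44.5%. miR-669a-3p had 11 copies, miR-467a-5p 10 and miR-466b-3p 8, and each of the 3 was among the 4 highest members. The remaining one of these 4, miR-467e-5p, had 1 copy. Across the 71 members rho between copies and counts was 0.415, also a description. Copies were counted by number and letter of the name, not by sequence. Any hairpin of another letter with the same mature sequence was therefore not counted.

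**Figure D3:**
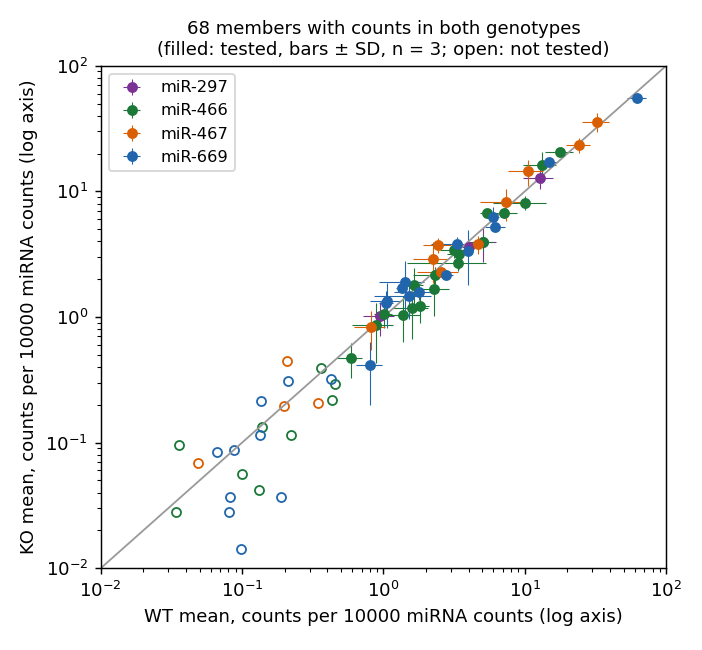
Mean KO level against mean WT level of each member, in counts per 10000 miRNA counts on log axes, coloured by miRBase number; filled points were tested and carry ± SD (n = 3), open points were not, and the line marks equal levels. Of the 68 members with counts in both genotypes, the tested ones lie near the line, and several untested ones, with few counts, lie off it. The 3 members listed at 0 in a genotype are not drawn.

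Changes of single members were small. Of the 45 members tested, 2 rose and 1 fell in KO (edgeR, adjusted p under 0.05 over all small RNAs tested). Over all 24682 RNAs tested 6.3% rose and 76.7% fell, together 83%, and among the 303 miRNAs outside the cluster 8.91% rose and 15.5% fell, together 24.4%. Over all 348 miRNAs, the cluster included, 8.33% rose and 13.8% fell, together 22.1%. The members' share, 6.67%, was below both backgrounds. Because most RNAs of the table passed, adjusted p-values stood close to the unadjusted ones, and 3 members had an unadjusted p under 0.05. With the miRNAs alone fitted and adjusted, edgeR called 0 of the 45 members, against 5.32% higher and 9.93% lower of 282 other miRNAs in that fit, while DESeq2 on the whole table called 2 higher and 0 lower. For the 303 other miRNAs DESeq2 called 23 higher and 21 lower. With 1 library left out, edgeR called 1, 0 and 4 members higher and 2, 2 and 0 lower without KO replicates 1, 2 and 3. These fits tested 50, 50 and 51 members. Of 342, 340 and 339 other miRNAs in them, 25, 21 and 24 were called higher and 43, 41 and 43 lower. Without WT replicates 1, 2 and 3, edgeR called 1, 3 and 0 of 45 members higher and 1, 0 and 6 lower. Of 284 other miRNAs in each of these, 21, 26 and 25 were called higher and 35, 44 and 39 lower.

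The log2 changes of the 45 members ran from -0.96 to 0.61 with a median of -0.03, and 42 (93.3%) lay within 0.5 of 0. For the 303 other miRNAs the range was -3.60 to 2.33, the median -0.12, and 195 (64.4%) lay within 0.5. The median levels of both sets were similar, at 3.09 counts per 10000 for the members and 2.90 for the others. The 95% interval stayed within a 2-fold change in either direction for 37 members and reached it for 8. By number, the medians were -0.09 for miR-297 (4 tested), -0.11 for miR-466 (18), 0.14 for miR-467 (9) and 0.04 for miR-669 (14). edgeR called 0 members of miR-297 and 0 of miR-466, with 0 in each at an unadjusted p under 0.05 and 0 by DESeq2. Leaving out libraries brought calls in both. Without WT replicate 3, miR-466f-3p (log2 change -0.62, adjusted p = 0.00148), miR-466i-3p (-0.74, 0.00157), miR-466f, miR-466b-5p, miR-466n-5p and miR-297a-5p (-0.54, 0.0199) were called lower. Of these, miR-466f-3p (-0.52, adjusted p = 0.00527) and miR-466i-3p (-0.85, 0.000719) were also called without both replicate 3 libraries. miR-466k was called lower without KO replicate 1 (adjusted p = 0.0425), and miR-466d-3p higher without KO replicate 3 (0.0321) or WT replicate 2 (0.0480).

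**Figure D4:**
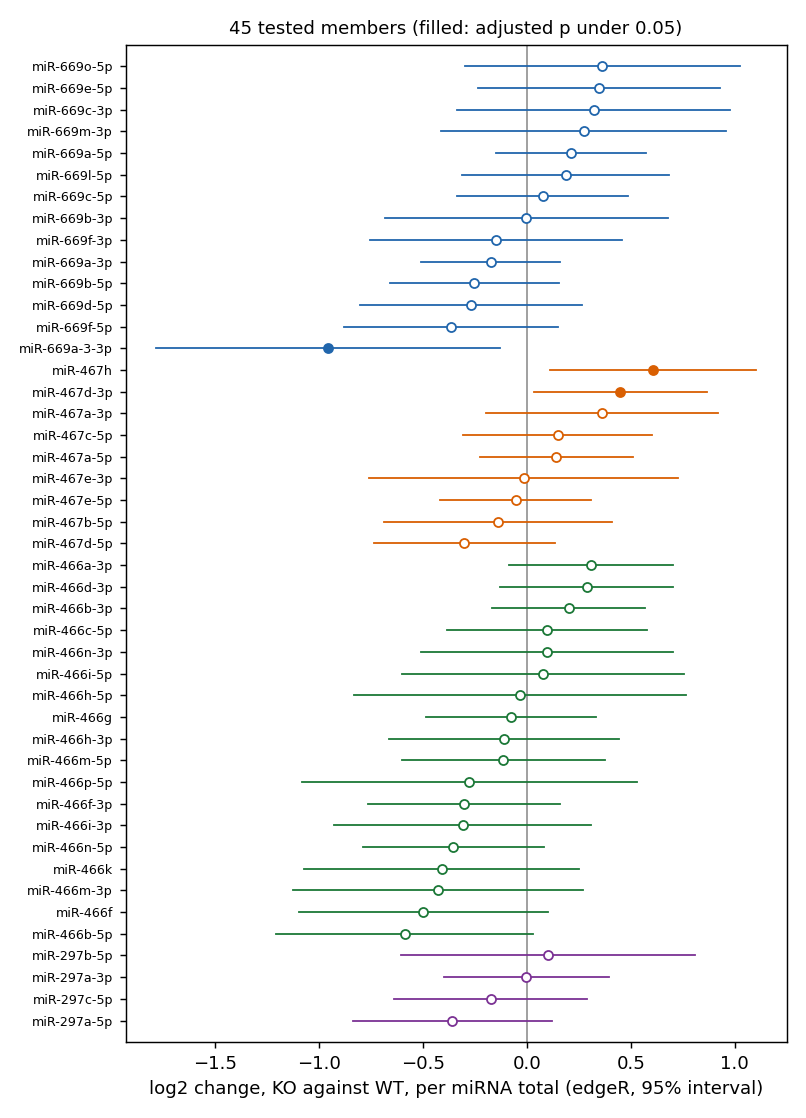
log2 change KO against WT of the 45 tested members (x axis, scaled to the miRNA total, edgeR) with 95% intervals, grouped and coloured by miRBase number; filled points have an adjusted p under 0.05. The 3 filled points are miR-467h and miR-467d-3p above 0 and miR-669a-3-3p below 0, and most other intervals include 0 and end within a change of 1.

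miR-467h, whose hairpin lies outside Sfmbt2 on chromosome 9, rose with the largest increase of the tested members. Its counts were 79, 63 and 86 for the KO replicates and 45, 58 and 46 for the WT replicates, which is 3.37, 4.30 and 3.53 against 2.50, 2.96 and 1.87 per 10000 miRNA counts. All KO libraries were above all WT libraries. This was a rise of 0.61 ± 0.24 on the log2 scale (SE; adjusted p = 0.0219 by edgeR), which no longer passed without KO replicate 2 (adjusted p = 0.0903), without WT replicate 3 (0.0791), without both replicate 3 libraries (0.0738) or with miRNAs alone fitted (0.0855). It passed by edgeR with the replicate number as a block (adjusted p = 0.0119) and by DESeq2 (0.0205).

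miR-467d-3p, the 3p arm of a hairpin in the Sfmbt2 intron, rose by less. Its counts were 364, 252 and 259 in KO and 187, 266 and 190 in WT, or 15.5, 17.2 and 10.6 against 10.4, 13.6 and 7.72 per 10000. The genotypes overlapped, since KO replicate 3 lay below WT replicate 2. In each pair of libraries with the same number KO lay above WT, although the numbers are not known to mark shared animals. The rise was 0.45 ± 0.21 on the log2 scale (SE; adjusted p = 0.0429 by edgeR). It lost the call in 4 of the 6 fits that left out a library, at an adjusted p of 0.128 without KO replicate 1, 0.212 without KO replicate 2, 0.0971 without WT replicate 1 and 0.193 without WT replicate 3. It also lost it with a minimum count of 50 (0.0594) and with miRNAs alone fitted (0.219). The call was kept by edgeR with the replicate number as a block (adjusted p = 0.00411) and without both replicate 3 libraries (0.0137). It was also kept with trimmed mean (TMM) factors of the miRNAs (0.0209) and by DESeq2 (0.0372).

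miR-669a-3-3p, a rare arm of 1 hairpin in the intron, fell. KO libraries held 15, 6 and 5 of its reads and WT libraries 11, 18 and 22, so that KO replicate 1 lay above WT replicate 1 also per 10000 (0.639 against 0.612). Its log2 value changed by -0.96 ± 0.41 (SE; adjusted p = 0.0302 by edgeR). It did not pass with DESeq2 (adjusted p = 0.137). The same held when KO replicate 2 (0.0674), KO replicate 3 (0.244), WT replicate 2 (0.0781) or WT replicate 3 (0.0684) was left out, without both replicate 3 libraries (0.322), or with miRNAs alone fitted (0.152). By edgeR miR-669a-3-3p passed with the replicate number as a block (adjusted p = 0.0279) and with TMM factors of the miRNAs (0.0444). This entry is named for a copy of the miR-669a hairpins, and reads shared among near-identical copies make its own count uncertain.

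Next in each direction came miR-669o-5p above 0, and miR-466b-5p and miR-466f below 0, none of which passed with all 6 libraries. On the log2 scale miR-669o-5p stood at 0.36 ± 0.33, miR-466b-5p at -0.59 ± 0.31 and miR-466f at -0.50 ± 0.30 (SE; adjusted p = 0.300, 0.0734 and 0.117 by edgeR). miR-466b-5p passed without KO replicate 2 (adjusted p = 0.0470) or WT replicate 3 (0.0279), and so did miR-466f (0.0227 and 0.0315). Libraries of the genotypes did not overlap for 6 of the 45 tested members (13.3%), against 37.6% of the 303 other miRNAs and 83.6% of all RNAs tested. These 6, chosen after their values were seen, were higher in KO for miR-467h, miR-466a-3p and miR-669e-5p, and lower for miR-466n-5p, miR-669f-5p and miR-466b-5p. miR-466a-3p, for example, stood at 6.52, 6.83 and 6.65 per 10000 for the KO libraries and 6.01, 5.36 and 4.80 for the WT libraries (log2 change 0.31 ± 0.20, SE; adjusted p = 0.139 by edgeR).

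The 26 members not tested had 0 to 48 counts over all 6 libraries and together held 1.28% of the cluster's counts, while the tested members had at least 66. They include miR-467g (24 counts), miR-466j (15), miR-467f (8), miR-466q (7) and miR-669n (7), whose sequences are shown above. miR-669j had no count in any library. A count in all 6 libraries was found for 56 of the 71 members. With no filter on low counts 1 of them was called, miR-669i, lower in KO at 1, 1 and 0 counts against 2, 5 and 5 in WT (edgeR adjusted p = 0.0375 in that fit). Another, miR-467c-3p, entered the test and was called higher without KO replicate 3 (9 and 11 counts in the remaining KO libraries against 2, 6 and 5 in WT, adjusted p = 0.0343) and without both replicate 3 libraries (adjusted p = 0.0327). Both were named after their values were seen, and both rest on few reads.

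The more abundant arm of a hairpin name was the same in KO and WT for every pair tested. Both arms were tested for 13 hairpin names. In all 13 the same arm was higher in all 6 libraries, the 5p arm in 7 and the 3p arm in 6. Among 62 other miRNA names with both arms tested, this held for 55 (88.7%). For miR-467a and miR-467e the 5p arm made up 92.6% ± 1.61 and 96.6% ± 0.681 of both arms in KO, and 93.5% ± 1.21 and 96.7% ± 0.809 in WT (SD, n = 3). For miR-669a, miR-466b, miR-297a and miR-467d the 3p arm was higher. Arms were paired by name, so both arms of a name need not come from the same hairpins. miR-669a-5p, for example, had 12 hairpin copies and miR-669a-3p had 11.

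Over the whole cluster the 5p entries held 47.4% ± 0.653 of the counts with a named arm in KO and 47.7% ± 0.888 in WT (SD, n = 3; exact permutation test, two-sided, p = 0.6). Without miR-669a-3p, the highest member, the KO share was 2.35 percentage points below the WT share (KO minus WT -2.35, exact permutation p = 0.2), against -0.31 with it. By number the share moved in different directions. In miR-467 it was 79.7%, 78.2% and 81.3% in the KO replicates and 84.3%, 82.6% and 83.6% in the WT replicates. In miR-669 it was 39.5%, 39.9% and 40.3% in KO and 37.4%, 35.0% and 37.2% in WT. The genotypes did not overlap in either, with 5p lower in KO in miR-467 and higher in miR-669. miR-297 had 40.2% ± 3.35 and 44.1% ± 2.03, and miR-466 20.1% ± 1.93 and 23.9% ± 3.06 (SD, n = 3), and both overlapped. The exact permutation p, two-sided, was 0.1 for miR-467 and miR-669 and 0.2 for the other numbers, and 0.2 for each when adjusted over the 4, so none passed.

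Within single hairpin names, the 5p share did not overlap between the genotypes for 4 of 13 pairs, against 16 of the 62 other pairs (25.8%). The count for the cluster was thus not far from that of other miRNAs, and the 4 pairs are given as descriptions. miR-467d had the largest difference: its 5p share was 22.4%, 17.6% and 23.1% in KO and 31.0%, 27.1% and 35.8% in WT, 10.3 percentage points lower in KO. Here the 3p arm was called higher with all 6 libraries, a call that several other fits lost, as given above. The 5p arm stood at -0.30 ± 0.22 on the log2 scale (SE; adjusted p = 0.192 by edgeR). The share of miR-669a 5p was higher in KO, at 23.7% ± 2.70 against 19.2% ± 0.403 in WT. It was lower in KO for miR-466b (5.54% ± 1.25 against 9.30% ± 1.47) and miR-297a (23.4% ± 4.16 against 28.4% ± 0.491; SD, n = 3). For these 4 pairs the exact permutation p was 0.1, the smallest that the design allows, and 0.325 when adjusted over the 13 pairs. Shares within a library do not change with the scaling of the libraries.

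**Figure D5:**
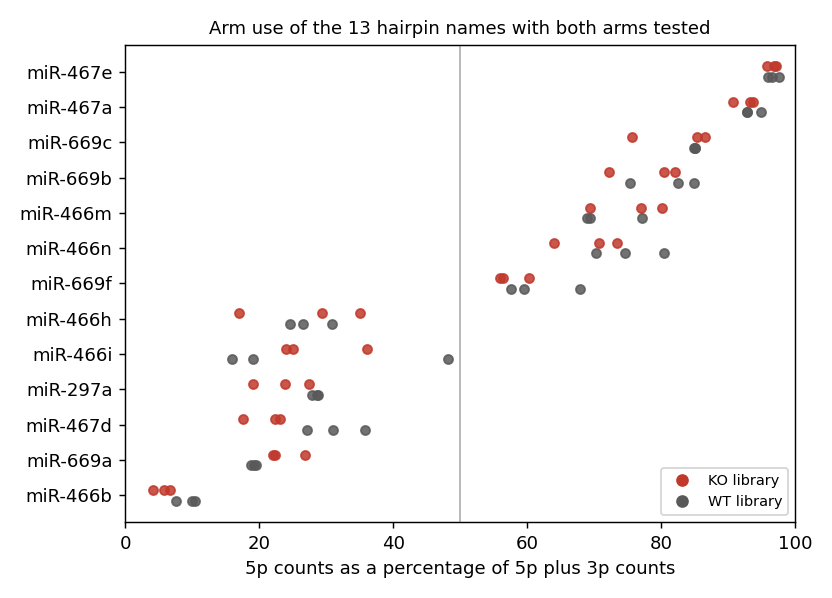
Share of the 5p arm, in percent of the counts of both arms, for each hairpin name with both arms tested, with 1 point per library (grey WT, red KO). The higher arm is the same in all 6 libraries for all 13 names, and the separation of KO from WT is widest for miR-467d.

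The direction of single members rested on the scaling. With library sizes or TMM factors (a trimmed mean normalisation) of the whole small RNA table, 44 and 45 of the 45 members were called higher in KO, and so were 96.3% and 97.1% of all 348 miRNAs tested. The median change of all RNAs tested was -2.14 with the miRNA total as the scale, -0.38 with table library sizes and -0.21 with table TMM factors. The members rose with the miRNAs as a class on those scales, and relative to the other miRNAs their level was as given above.

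Markers of other cells were read on the same scale. miRNAs of late germ cells (the miR-34b/c and miR-449a entries, which mark spermatocytes and spermatids) were abundant in all 6 libraries, with 3347 ± 198.7 counts per 10000 for KO and 2941 ± 101.8 for WT (SD, n = 3), and 4 of 6 rose (edgeR). Those of peritubular and mesenchymal cells (miR-143, miR-145, miR-199 and miR-214), which mark cells of the tubule wall, summed to 167.3 to 219.4 in KO and 232.9 to 333.5 in WT, with 6 of 8 tested entries lower and none at 0. In the same fit 8.91% of the 303 miRNAs outside the cluster rose and 15.5% fell, and of all RNAs tested 6.3% rose and 76.7% fell. Within each genotype the peritubular and mesenchymal sum was highest in replicate 3, where the cluster was lowest. Sertoli and gonadal miR-202 summed to 17.1 to 22.5 in KO and 19.0 to 23.6 in WT, the spermatogonial list to 65.1 to 83.7 and 71.6 to 86.4, and the endothelial list to 80.4 to 87.2 and 83.3 to 85.8. The leukocyte list summed to 20.9 ± 1.35 and 18.2 ± 2.58 (SD, n = 3), and the erythroid list to 0.369 to 0.614 and 0.834 to 1.28. The 1 tested erythroid entry was called lower in KO (edgeR). In the spermatogonial, Sertoli, endothelial and leukocyte lists 0 entries were called. Of the entries, 1 of 8 spermatogonial and 2 of 4 endothelial ones were at 0 in all libraries, and 0 of the other lists. The part of these cells in the cluster's level was not tested.

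The cluster's spread between libraries of 1 genotype was unlike that of the X-linked Slitrk2-Fmr1 cluster, another large miRNA array of the testis. The sum of its 36 entries was 648.9 and 645.0 counts per 10000 in KO replicates 2 and 3 and 743.8 and 744.4 in the WT libraries of those numbers, with a coefficient of variation of 1.71% and 1.26%, so the libraries that differed in the Sfmbt2 cluster were nearly level in this one. Its means, 653.3 ± 11.2 and 738.8 ± 9.30 (SD, n = 3; exact permutation test, two-sided, p = 0.1), did not overlap. Of its 31 tested entries 0 rose and 8 (25.8%) fell (edgeR), with a median log2 change of -0.23. Of the 303 miRNAs outside the Sfmbt2 cluster, these entries included, 15.5% fell and 24.4% were called in either direction. Over all RNAs tested 76.7% fell. Whether the 2 clusters differ in their response was not tested. A spread of this size was not particular to the Sfmbt2 cluster. The peritubular and mesenchymal sum had coefficients of variation of 14.53% in KO and 20.05% in WT, against 13.19% and 19.81% for the Sfmbt2 cluster. Those of the endothelial sum were 4.25% and 1.54%.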

How the data were processed

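The deposited small RNA table holds raw counts of reads per reference sequence in 6 libraries, made by the authors with featureCounts v1.5.0-p2 at default options, per the file headers. Under these options reads that an aligner marks as mapping to several places are not counted. The aligner is not given in the sources used here, so how reads shared by similar members were split is not known. Cutadapt, DESeq2 and mm9 are named in the submitters' processing notes. The table has no genome positions for its entries, and positions were taken by name from GENCODE M21 (GRCm38) and RefSeq (GRCm38.p6). The table of cluster piRNAs was not used here.

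All RNAs were fitted together with the edgeR 4.0.16 quasi-likelihood test (R 4.3.3), with the miRNA total of each library as its library size and no TMM factors. The filter was filterByExpr (minimum count 10, minimum total 15), and p-values were adjusted by Benjamini-Hochberg over all RNAs tested, with a threshold of 0.05. The SE is the log2 change divided by the root of the F statistic. Sums and shares were compared with exact permutation tests in scipy 1.17.1. The edgeR fit was checked on simulated data in which few RNAs changed. Most RNAs passed in the real fit, so the check does not cover the calls made here. DESeq2 1.42.0, other scalings and filters, the replicate block and left-out libraries were alternatives.

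The text names the 12 highest members, those called, the 3 highest and 3 lowest log2 changes, and the arms of the 6 most counted pairs; others named were chosen after their values were seen. The members and lists were chosen with earlier results of these data known. A planned comparison of counts by sequence motif was void, since 8 of 71 members had a sequence.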

Additional observations from a re-analysis of the deposited data

How the results depend on the processing

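The scale decided the direction of single members, because miRNAs as a class took a larger share of the KO tables. With library sizes or TMM factors of the whole table, 44 and 45 members were called higher and 0 and 0 lower, against 2 and 1 on the miRNA total. All 26 tested members below 0 turned to above 0 on either scale. Among the members chosen to be named, the log2 changes were, with table library sizes and with table TMM factors in turn, 1.73 and 1.90 for miR-297a-3p, 1.38 and 1.54 for miR-297a-5p, 1.16 and 1.33 for miR-466b-5p, 1.24 and 1.41 for miR-466f, 1.42 and 1.58 for miR-466f-3p, 1.66 and 1.83 for miR-466g. They were 1.45 and 1.62 for miR-467d-5p, 1.73 and 1.90 for miR-467e-3p, 1.68 and 1.85 for miR-467e-5p, 0.78 and 0.96 for miR-669a-3-3p, and 1.57 and 1.73 for miR-669a-3p. With the whole table as the denominator, the log2 ratio of the cluster sum was 1.74. The sums of miR-297 and miR-669 turned to 1.64 and 1.66, and those of miR-466 and miR-467 stood at 1.74 and 1.86. The exact permutation p was 0.1 for each of these sums, the smallest that 3 against 3 allows.

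On the miRNA total, values near 0 changed sign. With TMM factors of the miRNAs and with DESeq2 in turn, miR-297a-3p was at 0.074 and 0.091, miR-466g at 0.0016 and 0.016, miR-467e-3p at 0.059 and 0.085, and miR-467e-5p at 0.022 and 0.039. Without the 10 highest miRNAs in the total, the log2 ratio of the cluster sum was -0.0024 and that of miR-466 -0.0043. Without miR-669a-3p that of miR-669 was 0.038. Without both replicate 3 libraries the cluster sum was at -0.039 and miR-467e-3p at 0.037.

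The calls rested on the filter, the test and single libraries. Lower members numbered 0 with DESeq2, 2 with no filter on low counts, 0 of 30 tested at a minimum count of 50 and 2 without both replicate 3 libraries. Of the other miRNAs in these fits, 21 of 303, 63 of 1151, 32 of 182 and 47 of 313 were called lower. Higher members numbered 1 at a minimum count of 50, against 16 of 182 other miRNAs. With miRNAs alone fitted, an alternative added after seeing the data, 0 rose and 0 fell, and with members summed by number 0 and 0 of the 4 sums. Leaving out 1 library at a time gave 0 to 4 higher and 0 to 6 lower members, as given for each library in the results.

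Leaving out each library moved the log2 ratio of the cluster sum between -0.14 and 0.14, miR-297 between -0.25 and 0.10, miR-466 between -0.17 and 0.16, miR-467 between -0.031 and 0.28 and miR-669 between -0.19 and 0.019. The 5p share difference ran from -0.67 to 0.19 percentage points, and it was -2.35 without miR-669a-3p. Of single members, sign changes occurred for miR-297a-3p (-0.18 to 0.18), miR-466g (-0.23 to 0.12), miR-467a-5p (-0.033 to 0.27), miR-467c-5p (-0.050 to 0.45), miR-467e-3p (-0.28 to 0.19), miR-467e-5p (-0.20 to 0.078), miR-669c-5p (-0.064 to 0.22) and miR-669o-5p (-0.012 to 0.66). Beyond the effect of fewer libraries or RNAs, the cause was not tested.

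The labels give both genotypes replicate numbers 1 to 3, but nothing says that a number marks a shared animal or day. Deviations of same-numbered libraries correlated at 0.03, 0.08 and 0.12 over 24682 RNAs, not all above 0.1, a limit chosen here. Each library still correlated best with its own number, and the cluster sum had the same order of replicates in both genotypes. The permutation tests and intervals of the sums did not use these numbers, and no sum was fitted with the replicate block. With the replicate block, 2 members rose and 1 fell, and 34 of 348 miRNAs rose and 57 fell, against 29 and 48 without it. With this block miR-297a-3p was at 0.012. The share of counts by sequence motif was not run under any alternative. Low counts limit the 26 members not tested, and the spread between libraries limits the sums.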

Other observations

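Beside the Sfmbt2 cluster, 2 other miRNA arrays with imprinted or placental expression were read, Dlk1-Dio3 and miR-290, and both were rare in these libraries. The Dlk1-Dio3 cluster, an imprinted miRNA array, had 100 entries in the table, of which 25 were listed at 0 in all libraries and 11 were tested. Its sum was 11.97, 9.97 and 10.01 counts per 10000 miRNA counts in KO and 12.18, 14.39 and 13.70 in WT, so the KO libraries lay below the WT libraries. Of the 11, 1 (9.09%) rose and 0 fell (edgeR), with a median log2 change of -0.55. Of the 303 miRNAs outside the Sfmbt2 cluster 8.91% rose and 15.5% fell, and of all RNAs tested 6.3% rose and 76.7% fell. The miR-290 cluster, known from early embryos and placenta, had 18 entries, 3 of them tested, with sums of 3.39 ± 0.106 in KO and 3.25 ± 0.223 in WT (SD, n = 3). Of these 3 entries, 1 (33.3%) rose and 0 fell (edgeR). Both sums are far below the 305.4 and 304.4 of the Sfmbt2 cluster on the same scale.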
